A study of Mus musculus with 2 samples.

Results

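Proximal T cell receptor signalling comprises the chains of the antigen receptor complex, the kinases and adaptors that act at the membrane within it, and the proteins that restrain them. A list of 38 such genes was followed here, and 32 of them had at least 1 probe set whose only gene symbol was theirs, out of 11807 genes measured. Lck, Malt1, Ubash3a, Cblb, Csk and Cd69 were not analysed here. The 2 samples were CD4+ T cells of female C57BL/6J mice, a strain given with no further allele, taken as naive cells from spleen and lymph nodes and activated for 60 h on plate-bound antibodies to CD3 and CD28. One culture received no cytokine, and the other was activated in the presence of 25 ng/ml murine recombinant IL-27. Each group was 1 microarray, so no difference has a replicate check, no test was possible and no error over cultures can be given. How many mice gave the cells of each culture is not given in the sources used here, and bulk RNA of this kind cannot tell fewer cells of a type from less RNA per cell.

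When the receptor meets its ligand, Src family kinases phosphorylate the CD3 and zeta chains, ZAP-70 docks on them, and the adaptors LAT and SLP-76 then assemble the enzymes that start the calcium, Ras and NF-kappaB routes. Phosphatases, ubiquitin ligases, diacylglycerol kinases and the surface receptors CD5 and CD6 dampen this cascade. In these cultures the antibodies on the plate drove the receptor on both arrays, and the comparison asks how the mRNA levels of its machinery stood with and without IL-27.

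Both arrays carried T cell RNA by the markers listed for CD4+ T cells, of which only Cd4 sets these apart from CD8 T cells. All but Thy1 are also members of the list followed here. All 6 of Cd3e, Cd4, Cd28, Thy1, Lat and Cd5 lay above background, which was set at an intensity of 23.8, the 95th percentile of 42 genes of other tissues. Cd8a was below background on both arrays, while Cd8b1 stood at 119.3 and 176.5. Of 25 markers of B cells, myeloid cells, dendritic cells, granulocytes, erythroid cells and platelets, 4 were above background, with the highest, Cd68, at 54.9 and 27.5. Of 5 NK cell markers, Ncr1 and Klrb1c were below background on both arrays, whereas Klrd1 (114.2 and 16.4), Klrk1 (68.2 and 14.7) and Nkg7 (2722 and 884.3) were lower with IL-27, and the summed intensity of the 5 was 2929 and 939.5. Most of that sum was Nkg7. Whether NK or other cells were present, and what part they had in the differences below, was not tested. Socs3, which IL-27 is known to induce through STAT3, had intensities of 1122 without and 185.8 with the cytokine by the labels, 6.04-fold lower. Il21 and Prdm1, which IL-27 is also known to raise, had 384.3 and 26.7, and 189.8 and 16.5, in the same order. These genes go against the labels, and with 1 array per group an exchange of the labels cannot be checked. Every direction and rank below follows the labels and would turn if they were exchanged.

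Most of the measured machinery was above background on both arrays, and most of it was within 1.5-fold, as were most of all genes. Of the 32 measured genes 31 were above background, Plcg1 being the exception. Within 1.5-fold were 25 of the 31, against 6073 of all 6930 genes above background. The exceptions were the adaptors Trat1 and Sh2d1a, which were at least 2-fold higher with IL-27, and the brakes Cd6, Dgka and Cd5 and the Tec family kinase Txk, which were at least 1.5-fold lower. No member was 2-fold lower. For scale, among all 6930 genes above background the 2-fold line was passed by 1.49% upward and 2.73% downward, and the 1.5-fold line by 5.12% upward and 7.24% downward. By any amount, 22 of the 31 members were lower, against 47.6% of all genes, and 9 were higher, against 52.1%. Their median log2 difference, always IL-27-treated minus untreated, was -0.20, and the median over all genes above background was 0.02. Without Trat1 and Sh2d1a, left out because they were the highest, the median was also -0.20 over 29 genes, with a highest difference of 0.40. A median can move little when 2 values are dropped, so this is a description only.

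**Figure D1:**
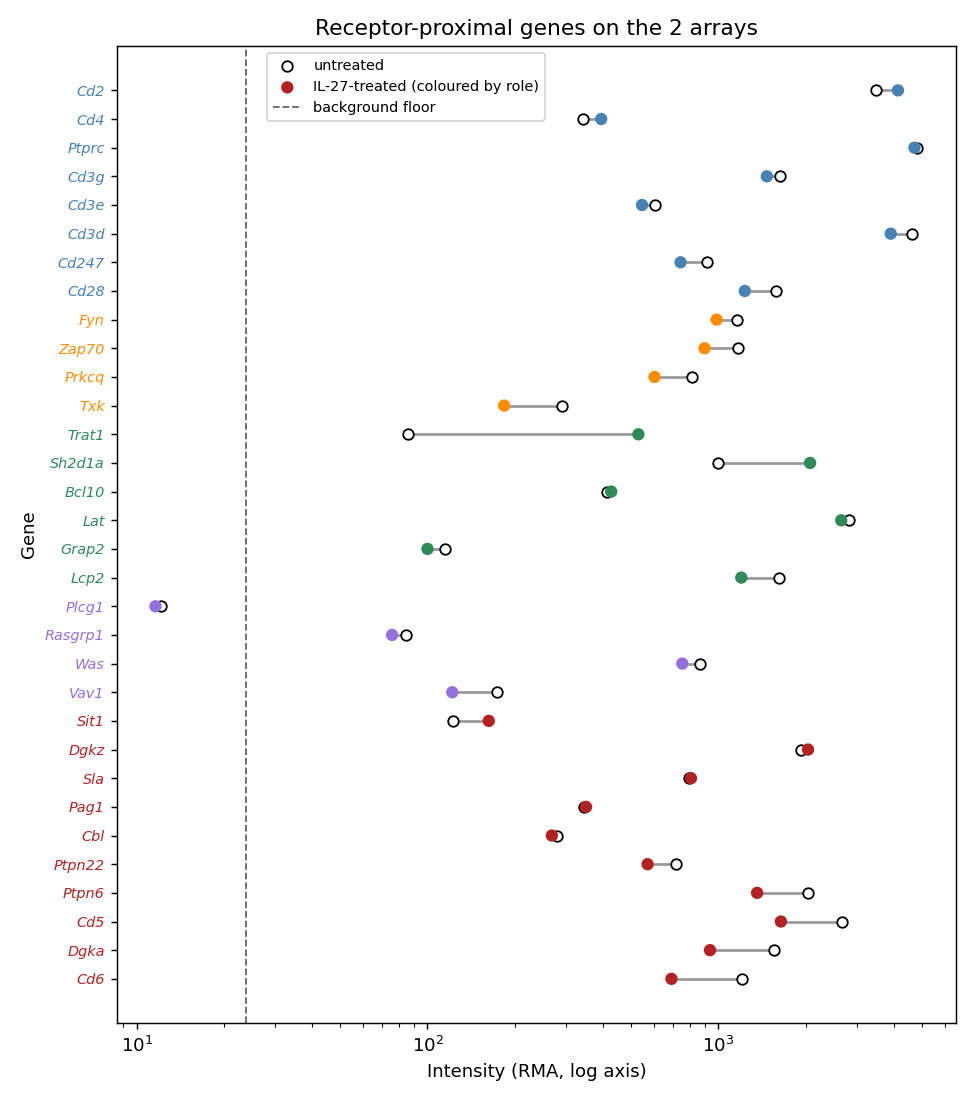
Intensity (log axis) of the 32 measured genes on the untreated array (open circles) and the IL-27-treated array (filled circles, coloured by role), 1 array each, with the background floor of 23.8 as a dashed line. The 2 circles are to be compared within a gene, and Trat1, at 85.6 and 530.6, has the widest gap, while Plcg1 is below the floor on both arrays.

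The promoters of Trat1 and Cd5 are shown because these genes lie on opposite sides of the comparison. They are the only members at least 1.5-fold apart with a single promoter entry in the RefSeq table, build GRCm38.p6. Each sequence runs from 250 bases before the transcription start to 50 bases after it. The Trat1 promoter is chr16:48772013-48772312 on the minus strand, and the Cd5 promoter is chr19:10738925-10739224 on the minus strand. Capitals mark matches on either strand to 6 letter patterns of T cell transcription factors.
Trat1: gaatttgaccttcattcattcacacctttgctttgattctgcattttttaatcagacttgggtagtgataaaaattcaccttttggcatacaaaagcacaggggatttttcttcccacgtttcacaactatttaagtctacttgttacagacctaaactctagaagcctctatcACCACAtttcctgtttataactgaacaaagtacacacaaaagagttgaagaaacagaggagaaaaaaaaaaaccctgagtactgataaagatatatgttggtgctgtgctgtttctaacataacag
Cd5: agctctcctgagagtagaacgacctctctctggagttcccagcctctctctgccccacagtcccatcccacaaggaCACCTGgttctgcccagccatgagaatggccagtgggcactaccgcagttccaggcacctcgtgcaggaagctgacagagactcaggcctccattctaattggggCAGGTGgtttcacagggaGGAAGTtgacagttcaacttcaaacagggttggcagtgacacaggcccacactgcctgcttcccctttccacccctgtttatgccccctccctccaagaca

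The patterns were TTCNNNGAA for STAT factors, TGANTCA for AP-1, GGAAGT for ETS, TGTGGT for RUNX, AGATAA for GATA factors and CAGNTG for E-box proteins. The Trat1 window held 1 match, to the RUNX pattern, and the Cd5 window held 2 E-box matches and 1 ETS match, none overlapping another. Neither window held the STAT pattern, which occurs in 8.30% of the 32851 promoter entries in the table. The RUNX pattern occurs in 16.8%, the ETS pattern in 23.8% and the E-box pattern in 51.4% of them. Of the 18 members above background with a single promoter entry, 2 held the STAT pattern, 0 the AP-1 pattern, 8 the ETS pattern, 3 the RUNX pattern, 2 the GATA pattern and 13 the E-box pattern. The AP-1 and GATA patterns occur in 7.81% and 11.2% of all entries. A match describes letters only, not binding.

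The receptor chains and their surface partners differed by at most 1.28-fold in all 8 cases, with a median of -0.15. Cd3d, Cd3e and Cd3g encode the delta, epsilon and gamma chains of CD3, which carry the signal of the antigen-binding chains. Cd3d stood at 4612 on the untreated and 3909 on the IL-27-treated array, a difference of -0.24. Cd3e stood at 607.0 and 546.2 and Cd3g at 1622 and 1466, each differing by -0.15. The CD3 genes are neighbours on chromosome 9 and were all slightly lower with IL-27. Cd247, the zeta chain with its several phosphorylation motifs, differed by -0.30, from 914.7 to 740.8. Its next probe set gave -0.24, but a dimmer one gave 0.05.

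The coreceptor and costimulatory genes went both ways. Cd4, whose product holds Lck near the receptor, stood at 342.5 and 395.4, a difference of 0.21, while its dimmer probe set gave -0.16, so its direction depended on the probe set. Cd2, an adhesion and costimulatory receptor, had 3488 and 4138, a difference of 0.25. Cd28, the receptor that the second plate-bound antibody engaged, had 1578 and 1232. Its difference of -0.36 was the lowest of this group, and its second probe set gave -0.37. Ptprc encodes CD45, the phosphatase that keeps Src family kinases ready to act, and stood at 4827 and 4717. That difference, -0.03, turned to 0.003 when each array's median was subtracted.

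All 4 kinases measured were lower with IL-27, against 47.6% of all genes above background, with a median of -0.40. Txk, a Tec family kinase that acts on phospholipase C-gamma, had 291.0 on the untreated and 183.4 on the IL-27-treated array. It was 1.59-fold lower, the only kinase past 1.5-fold. Prkcq encodes protein kinase C-theta, which links the receptor to NF-kappaB, and had 812.1 and 602.7, a difference of -0.43. Zap70, the kinase recruited to the phosphorylated chains, had 1164 and 895.8, a difference of -0.38. Fyn, a Src family kinase, had 1160 and 985.6. Its brighter probe set gave -0.23 and its other 0.02, so the lower level rested on 1 of 2 probe sets. Txk, Prkcq and Zap70 had 1 probe set each.

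The adaptors held both genes at least 2-fold higher and otherwise differed little, and their median of -0.02 turned to 0.02 when each array's median was subtracted. Trat1 encodes TRIM, a transmembrane adaptor that associates with the receptor complex. Its intensity was 85.6 on the untreated array, 3.60 times the background floor, and 530.6 on the IL-27-treated array. The fold of 6.20, or 2.63 on the log2 scale, placed it at rank 9 from the top by difference among the 6612 genes above background on both arrays. Sh2d1a encodes SAP, a small SH2 protein that couples SLAM family receptors to Fyn, and had 997.5 and 2065. It was 2.07-fold higher, just past the 2-fold line, and stood at rank 68. Trat1 and Sh2d1a were each read by 1 probe set.

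The other 4 adaptors, which form the core scaffold of the cascade and its NF-kappaB branch, were within 1.5-fold. Lat, the membrane scaffold, had 2808 and 2642, a difference of -0.09. Lcp2 encodes SLP-76, the partner scaffold of LAT, and had 1615 and 1198, a difference of -0.43. Its dimmer probe set, at 64.3 and 70.6, gave 0.13, and the gap of 0.57 between them was the widest among the members. Grap2 encodes GADS, which bridges LAT and SLP-76. It had 114.6 and 99.99, a difference of -0.20, with -0.17 from its other probe set. Bcl10, an adaptor of the complex that activates NF-kappaB, had 413.6 and 428.0, and its 3 probe sets lay between -0.02 and 0.05.

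The genes listed as effector enzymes and above background were all lower with IL-27 by less than 1.5-fold. Their median was -0.20 over 3 genes, and 47.6% of all genes above background were lower by any amount. Vav1, a signalling protein that organises the actin cytoskeleton, had 172.7 and 121.7, a difference of -0.50. Was, the Wiskott-Aldrich protein that promotes actin branching, is listed here although it is not itself an enzyme. It had 860.7 and 751.2, and its difference of -0.20 was the group's median. Rasgrp1, the diacylglycerol-dependent activator of Ras, had 84.2 and 75.5, a difference of -0.16. Plcg1, which encodes phospholipase C-gamma 1, was below background at 12.1 and 11.6, so its probe set gives no measure of the gene. Each of these genes had 1 probe set.

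**Figure D2:**
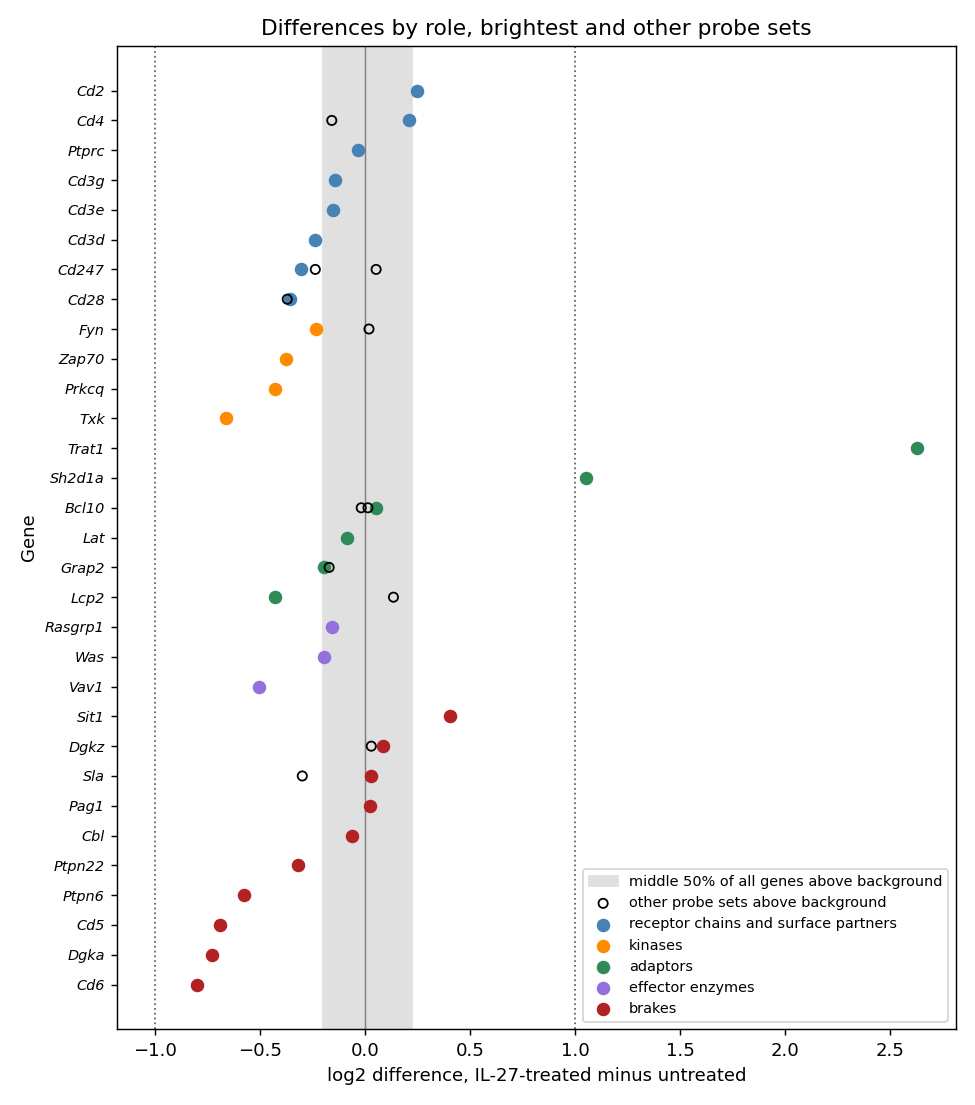
Difference in log2 intensity (IL-27-treated minus untreated) of the 31 genes above background, by the brightest probe set (filled, coloured by role) and by other probe sets above background (open), with the middle 50% of all genes above background shaded and dotted lines at 2-fold. All 4 kinases lie left of the shading, the adaptors Trat1 and Sh2d1a lie beyond 2-fold on the right, and Cd6, Dgka and Cd5 lie lowest among the brakes.

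The brakes ranged from -0.80 for Cd6 to 0.40 for Sit1. With 10 of them above background, the 1.5-fold line was passed downward by 3 and upward by 0, and the median was -0.19. Of all genes above background, 7.24% passed that line downward and 5.12% upward. Cd6, a scavenger receptor family protein of the T cell surface that binds ALCAM, had 1203 on the untreated and 689.3 on the IL-27-treated array. It was 1.74-fold lower, the lowest difference of any member at -0.80. Cd5, a related surface receptor that restrains receptor signalling and tracks its strength in thymocytes, had 2650 and 1639 and was 1.62-fold lower. Cd5 and Cd6 are neighbouring protein-coding genes on chromosome 19. Dgka encodes diacylglycerol kinase alpha, which removes the lipid that recruits RasGRP1, and had 1552 and 935.3. It was 1.66-fold lower, whereas Dgkz, which encodes the zeta isoform with the same activity, had 1918 and 2032 and differed by 0.08, or 0.03 by its other probe set. That the difference between the isoforms exceeds the variation between cultures could not be tested.

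Of the phosphatases listed as brakes, both were lower by less than 1.5-fold. Ptpn6 encodes SHP-1, which dephosphorylates receptor-proximal kinases, and had 2029 and 1358. Its 1.49-fold lower level fell just short of the 1.5-fold line and passed it after loess normalization. Ptpn22, a phosphatase that acts on Lck and ZAP-70, had 713.8 and 570.7, a difference of -0.32. Cd5, Cd6, Dgka, Ptpn6 and Ptpn22 were the 5 brakes below the first quartile of all genes above background, which was -0.20.

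The remaining brakes were close to 0 or higher. Sit1, which encodes a transmembrane adaptor that recruits phosphatases, had 122.8 and 162.4, a difference of 0.40 and the highest among the brakes. Pag1, the adaptor that brings the inhibitory kinase Csk to the membrane, had 345.4 and 350.6. Cbl, a ubiquitin ligase that marks activated kinases for degradation, had 279.1 and 267.5. Sla encodes SLAP, which helps Cbl remove receptor chains, and had 789.8 and 804.3. The differences of Pag1, Cbl and Sla were 0.02, -0.06 and 0.03, and their signs were not stable. Sla and Pag1 turned to -0.02 after loess normalization, and the mean of probe sets gave 0.12 for Cbl and -0.14 for Sla. The dimmer probe set of Sla gave -0.30.

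Agreement among probe sets of 1 gene was the only internal measure of error, and it covers probes only, not cultures. Over 2268 genes with several probe sets above background, the 2 brightest differed from each other by a median of 0.16, with a 90th percentile of 0.44. Among the members 9 had several such probe sets, with a median gap of 0.07, and 1, Lcp2, exceeded 0.44. The members furthest from 0, Trat1, Sh2d1a, Cd6, Dgka, Cd5, Txk, Ptpn6 and Vav1, had 1 probe set each, so no such gap could be taken for them. Of the 32 measured members 21 had only 1.

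The members were also set beside all genes of similar brightness, and most members were bright. Of the 31, 21 had a mean log2 level of at least 9, and their median difference was -0.24, against 0.03 over the 1875 genes of all kinds in that range. The 8 members between 7 and 9 had a median of 0.04, and the 2682 genes there a median of 0.03. Below 7 there were only 2 members, with a median of -0.18, against -0.02 over the 2373 genes there. At the bright end 4.85% of all genes passed the 1.5-fold line downward and 0.587% the 2-fold line upward, while below a level of 7 the 1.5-fold line was passed downward by 10.0%.

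**Figure D3:**
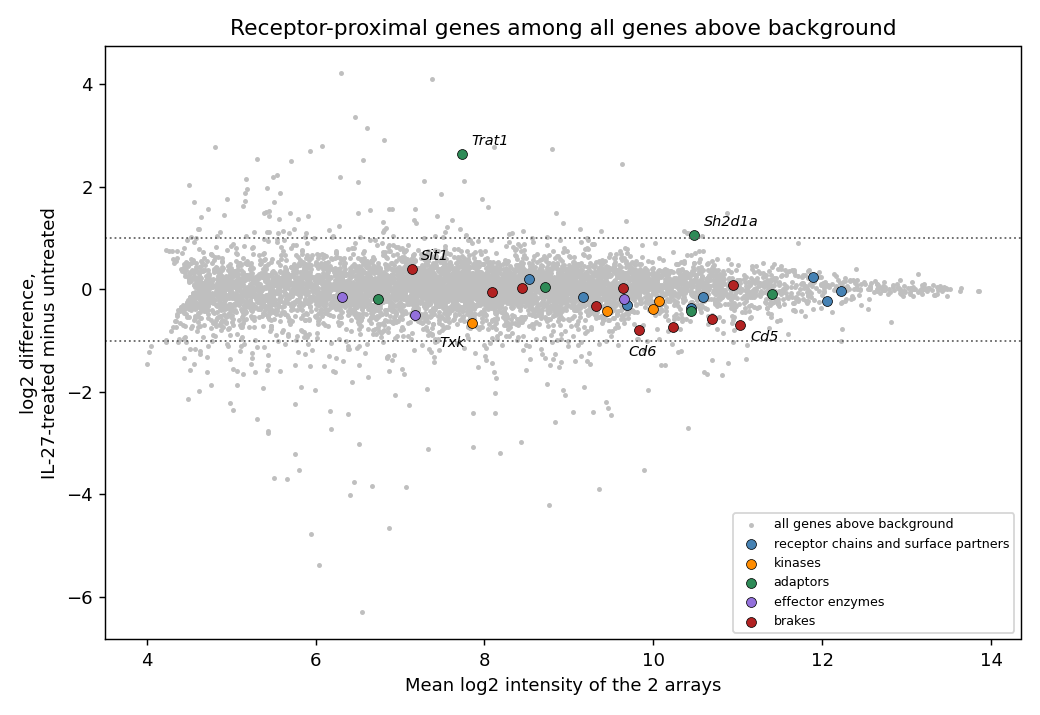
Difference in log2 intensity (IL-27-treated minus untreated) against the mean log2 intensity of the 2 arrays for the 6930 genes above background (grey) and the 31 members (coloured by role), with dotted lines at 2-fold. Trat1 and Sh2d1a lie above the upper line, and Cd6, Cd5 and Txk lie on the lower side without crossing the lower line, with other genes further below at similar levels.

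Further genes of the pathway were also mostly within 1.5-fold, as were most of all genes above background. Of 67 listed in 6 groups, 46 were measured and 43 were above background, with 1 past 2-fold upward and 0 downward. At 1.5-fold, 2 were higher and 4 lower, and the median was -0.13. Within 1.5-fold were 37 of the 43, against 6073 of all 6930 genes above background. Over all genes above background, 1.49% were 2-fold higher and 2.73% 2-fold lower, and 5.12% and 7.24% passed 1.5-fold. By any amount, 29 of the 43 were lower and 13 higher, against 47.6% and 52.1% of all genes. The 1 gene past 2-fold was Cd96, a receptor of T and NK cells listed among further brakes, with intensities of 51.3 and 105.5 and a difference of 1.04. Spry1, an inhibitor of the Ras route, was the second of that group at 0.71, and the group's median was -0.23 over 12 genes. Cd96 and Spry1 were each read by 1 probe set. Of the 12 genes 4 were higher and 8 lower. The 2 past 1.5-fold downward were Lime1 and Ptpn2, each at -0.60 and each with 3 probe sets. Those of Lime1 ran from -0.79 to -0.50 and those of Ptpn2 from -0.60 to -0.32.

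The downstream groups stayed within 2-fold. Among scaffolds, coreceptors and the Tec kinase, Tec itself had 115.5 and 72.0, a difference of -0.68, in the same direction as its relative Txk, and Cd8b1 differed by 0.57. In the calcium and NFAT group, the IP3 receptor gene Itpr3 differed by -0.61 and the calcineurin subunit gene Ppp3ca by 0.46. In the Ras and MAP kinase group, Map2k1, which encodes the ERK kinase MEK1, differed by -0.40 and Nras by -0.13. In the NF-kappaB group, Map3k7, which encodes TAK1, differed by 0.54, with its other probe sets down to 0.16, and Ikbkb, an IkappaB kinase gene, by -0.30. In the PI3-kinase group, the catalytic subunit gene Pik3cd differed by -0.43 and Akt2 by -0.37. The probe sets of Pik3cd ran from -0.58 to -0.05, of Ikbkb from -0.30 to -0.08 and of Nras from -0.31 to -0.03. Those of Akt2 ran from -0.51 to -0.37 and those of Ppp3ca from 0.27 to 0.46. The medians of these 5 groups ran from -0.13 to -0.04.

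**Figure D4:**
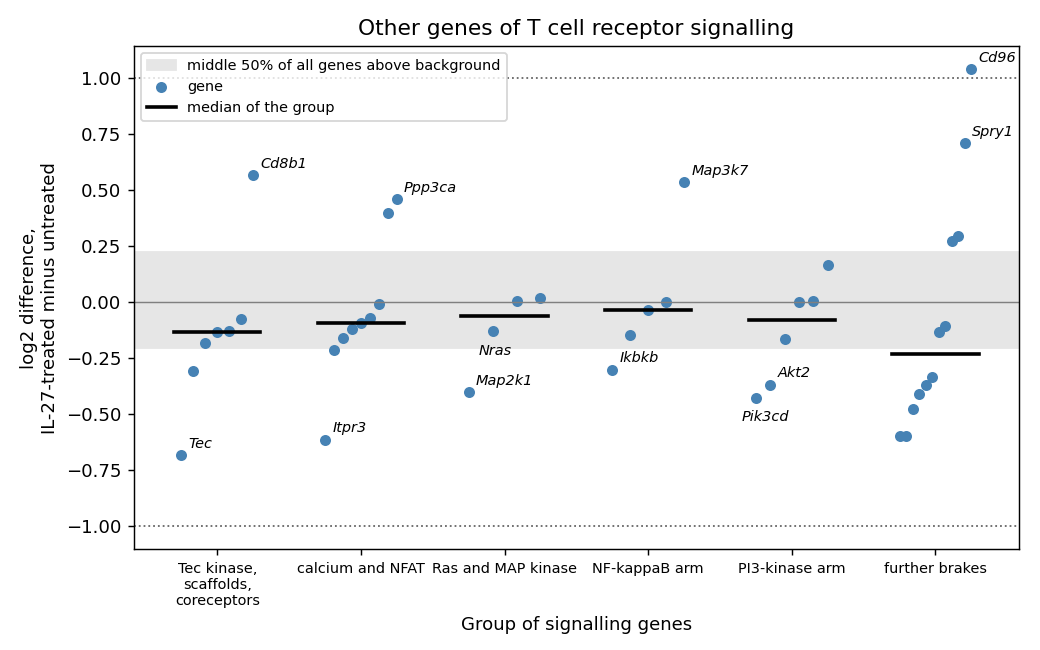
Difference in log2 intensity (IL-27-treated minus untreated) of 43 other genes of T cell receptor signalling above background, in 6 groups, each point a gene and each bar the group's median, with the middle 50% of all genes above background shaded and dotted lines at 2-fold. Cd96 alone crosses a dotted line, at 1.04, and all 6 medians lie below 0.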

How the data were processed

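The values are deposited linear intensities, 1 for each probe set on each array. The authors made these intensities with RMA, per the submitters' processing notes, by background subtraction, quantile normalization between arrays and summary over probes. No version or setting is given in the sources used here. RMA makes the arrays' distributions nearly alike and compresses dim differences, and the table holds no detection calls. Per the labels' protocols, 100 ng of total RNA was labelled by 3' in vitro transcription.

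Of 22716 probe sets, 18003 had 1 gene symbol, 287 several and 4426 none in the platform annotation. Entrez identifiers of 17977 matched a RefSeq table (GRCm38.p6), which changed 0 symbols. Intensities were converted to log2 with no pseudocount, and the brightest probe set stood for a gene. Background was the 95th percentile of 42 measured genes of other tissues (47 listed). A gene was counted as apart at 2-fold, and at 1.5-fold as an added count. With 1 array per group, no test was run, and the number of arrays limits precision. The procedure was checked on simulated data. Python 3.11.15, pandas and statsmodels 0.14.6 were used.

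The members and lists were chosen with earlier results of these data known. Every measured member was named, with pathway genes at least 2-fold apart and the 2 furthest from 0 in each group. Socs3, Il21, Prdm1, Lime1, Ptpn2 and the genes in the other observations lie outside this rule. Alternatives covered the floor, normalization, the choice of probe set, a pseudocount of 16 and the fold.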

Additional observations from a re-analysis of the deposited data

How the results depend on the processing

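The counts and medians of the members kept their size under other floors, dim values raised to the floor, subtraction of array medians, loess normalization, other choices of probe set and a pseudocount of 16. Trat1 and Sh2d1a were the members at least 2-fold higher in each, with differences of 2.43 to 2.67 and 1.01 to 1.09. With the fold threshold at 1.5, 4 members were lower in place of 0, and 2 other genes of the pathway were higher and 4 lower. Loess normalization raised the 4 members at least 1.5-fold lower to 5. With the pseudocount of 16, which by construction shrinks the differences of dim genes, 0 other genes of the pathway were at least 2-fold higher. Using the mean of probe sets moved Cd247 to -0.10, Cd4 to 0.02 and Lcp2 to -0.15. The mean also takes in probe sets below background. No paired analysis was possible because each group has 1 array. For the same reason no array could be left out. Signal over background limits Plcg1, which has no usable value.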

Other observations

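Partners of the genes that differed most were looked up after those differences were seen. SAP, the product of Sh2d1a, binds receptors of the SLAM family, and these did not move together. Slamf6 had 151.4 on the untreated and 245.1 on the IL-27-treated array, a difference of 0.69, with 0.59 from its other probe set. Slamf1 had 553.7 and 337.2, a difference of -0.72, and its 3 probe sets ran from -0.72 to -0.45. Ly9 differed by -0.36 and Cd84 by -0.17, while Cd244a and Sh2d1b1, which encodes the SAP relative EAT-2, were below background on both arrays.

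Alcam, which encodes the ligand of CD6, had 293.7 and 141.3 and was lower by a difference of -1.06 by its brighter probe set and of -0.37 by its other. Cd6 itself differed by -0.80. Ctla4 and Icos, coreceptors of the CD28 family, differed by -0.12 and -0.15. The diacylglycerol kinase genes Dgke and Dgkq, at most at intensities of 30.4 and 50.5, differed by 0.20 and 0.09.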
